A study of Mus musculus with 217 samples.

Results

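Adh1, Adh5 and Adh7 are 3 alcohol dehydrogenase genes of 1 cluster on mouse chromosome 3, on the same chromosome as Tet2. They were followed here by their gene symbols, as 3 of 53619 genes in each count table, in granulosa cells and in metaphase II (MII) oocytes. Granulosa cells are the somatic cells that surround the oocyte in the follicle. The genes were chosen by the size of the difference in their levels between granulosa pools labelled wild type and Tet2 knockout, so those differences, and differences between them, are given as a description with no test. Age and resveratrol were tested. Those comparisons use some of the same pools as the label differences, so their p-values in granulosa pools are not independent of the choice of genes.

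Mice on a C57BL6/129 background were wild type or Tet2 knockout by label. Tet2 encodes an enzyme that oxidises methylated cytosine in DNA. From the age of 2 months some mice drank water with 30 mg/L resveratrol, a plant polyphenol, and the controls' water held its solvent DMSO. The 18 granulosa libraries are 6 groups of 3 pools: 2-month wild type, 2-month knockout, and at 10 months wild-type control, wild-type resveratrol, knockout control and knockout resveratrol. The labels call the 2-month mice young and the 10-month mice old. The 171 oocyte libraries, each of 1 oocyte, fall into 10 groups of 14 to 20: both genotypes at 2 months without treatment, and at 6 and 10 months with and without resveratrol. A further 28 oocytes came from C57BL6 mice that carry no genotype label: 11 controls at 6 months, and 6 controls and 10 resveratrol-treated at 10 months, with 1 oocyte left unassigned because its labels disagree. All mice were primed with gonadotropin, and the granulosa cells were released from punctured visible follicles. No animal is named for any library, so a p-value here reflects the spread among samples alone, and that spread may be technical.

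Alcohol dehydrogenases are zinc enzymes that pass hydrogen from an alcohol to NAD+. Adh1, the class I enzyme, oxidises ethanol and retinol. Adh7, the class IV enzyme, has high activity toward retinol, the first step from vitamin A to retinoic acid, a signal that controls meiosis in the gonad. Adh5, the class III enzyme, is expressed in nearly all tissues, oxidises the glutathione adduct of formaldehyde and reduces S-nitrosoglutathione. In the deposited files' build, GRCm38, the cluster runs on the plus strand of chromosome 3 from Adh7 (138217760-138233382) through Adh1 (138260991-138290698), Adh6a, Adh6b and Adh4 to Adh5 (138443093-138455499). Tet2 (133463679-133545139, minus strand) lies 4.67 Mb from Adh7, 4.72 Mb from Adh1 and 4.90 Mb from Adh5.

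The stretches upstream of RefSeq starts of the 3 genes are shown because neighbouring genes of 1 cluster had different orders of level across the same pools. They come from RefSeq on GRCm38.p6, plus strand, and stop before the first GENCODE exon in each window. The Adh1 stretch lies before a RefSeq start inside the GENCODE model of Adh1, which begins further upstream. Capitals mark a TATA motif (TATAAA), a GC box (GGGCGG) or a CCAAT box (CCAAT), searched on both strands, so a match on the minus strand shows as the reverse complement. The retinoid receptor motif AGGTCA was also searched.
Adh1, chr3:138277335-138277493: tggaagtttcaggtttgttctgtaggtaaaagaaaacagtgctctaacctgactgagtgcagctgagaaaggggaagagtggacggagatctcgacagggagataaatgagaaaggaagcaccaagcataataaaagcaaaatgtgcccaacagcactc
Adh5, chr3:138442843-138443092: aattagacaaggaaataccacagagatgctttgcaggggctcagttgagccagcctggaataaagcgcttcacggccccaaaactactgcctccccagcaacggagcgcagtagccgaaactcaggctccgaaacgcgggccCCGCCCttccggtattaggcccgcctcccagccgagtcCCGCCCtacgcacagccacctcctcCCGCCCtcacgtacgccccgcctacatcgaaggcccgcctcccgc
Adh7, chr3:138217523-138217759: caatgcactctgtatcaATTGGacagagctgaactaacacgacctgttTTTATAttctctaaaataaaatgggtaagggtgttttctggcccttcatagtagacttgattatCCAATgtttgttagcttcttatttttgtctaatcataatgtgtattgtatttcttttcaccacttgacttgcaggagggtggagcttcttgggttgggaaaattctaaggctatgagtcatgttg

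In the 250 bases before each start, the Adh5 promoter held 21 CpG and 63.6% GC, with 3 GC boxes. It had more CpG than 83.7% of the 32851 promoters in the table, whose median was 6. The Adh7 window held 1 CpG and 38.0% GC, with 2 CCAAT boxes and 1 TATA motif. The Adh1 window held 5 CpG and 44.8% GC, and none of the 4 motifs. Over all promoters of the same length, 32.74% held a GC box, 33.85% a CCAAT box, 12.37% a TATA motif and 14.02% an AGGTCA. Adh5 also has an upstream RefSeq start, chr3:138436950-138437199, with 2 CpG and 1 TATA motif. A match is a run of letters and says nothing of binding.

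Depth and 1 unusual pool bear on every granulosa value. The 3 young wild-type pools and young knockout-label replicates 1 and 3 held 470647 to 749172 counts each, and the other 13 pools 5995491 to 20537935. Young knockout-label replicate 2, with 11595710 counts, stood apart from its group. It resembled the old pools in depth, and the old wild-type pools, not those of its own label, in the levels of all 3 genes. Its oocyte markers were as low as in the old pools, and its macrophage markers lay within the range of the old knockout-label pools. Each result that uses it is therefore also given without it. Markers of granulosa cells were detected in every group, 10 of 10, at a summed 4307 to 11625 CPM, counts scaled to a library total of 1000000. Oocyte markers summed to 85 to 253 CPM in the 5 shallow pools and 0.69 to 4.84 in the other 13, with Figla at 0 in all groups. Tet2, the targeted gene, was at 4.55 to 16.6 CPM in wild-type pools and 8.26 to 21.5 in pools labelled knockout, after scaling by edgeR's TMM factors. It was therefore not lower in the pools labelled knockout, and these are called knockout-label pools throughout. In oocytes, whose counts were summed by group, Tet2 was lower under the knockout label (log2 difference -1.36, SE 0.19, adjusted p = 0.0360 by edgeR's quasi-likelihood test). With 1 of the 10 sums left out the difference was -1.46 to -1.26, and it passed in 2 of 10 such fits (adjusted p from 0.0441 to 0.129). The labels do not say which exons the knockout removes.

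Adh1 was the gene with the widest range. In young wild-type pools it stood at 25, 0 and 0 CPM (16, 0 and 0 counts). The old wild-type control pools held 187.0, 179.5 and 181.2 CPM. The old wild-type resveratrol pools held 178.9, 166.5 and 145.6 CPM. All 6 old wild-type pools were thus far above all 3 young ones. In young knockout-label pools it was 1.33, 198.7 and 2.77 CPM (1, 2304 and 2 counts), with replicate 2 at the level of old wild type and the others at 3 counts in all. Old knockout-label pools held 11.3, 7.59 and 11.5 CPM without resveratrol and 15.6, 16.1 and 20.4 CPM with it. No old knockout-label pool reached an old wild-type pool. At the level of old wild-type controls, the young wild-type pools would have held 117, 85.9 and 91.4 counts, going by their total counts alone. Other differences of these shallow pools were not tested. For young wild type, 3 counts correspond to 4.69, 6.37 and 5.99 CPM, the upper limit a count of 0 allows, for counting error only.

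Adh7 followed a similar order of groups over a narrower range. Young wild-type pools stood at 18.8, 34 and 16 CPM. Old wild-type controls stood at 121.6, 110.1 and 85.5 CPM, above all young wild-type pools. Old wild-type resveratrol pools stood at 92.5, 67.1 and 60.4 CPM, partly within the control range. The young knockout-label pools were at 44.0, 115.0 and 15.2 CPM, where replicate 2 was again the high one. Old knockout-label pools stood at 30.5, 32.5 and 38.4 CPM without resveratrol and 54.8, 46.0 and 54.6 CPM with it, below every old wild-type pool of the same treatment.

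Adh5 had the opposite order between the labels. Young wild-type pools stood at 167.2, 189.1 and 179.8 CPM, old wild-type controls at 196.5, 189.7 and 187.6 CPM, and old wild-type resveratrol pools at 210.9, 172.5 and 178.3 CPM. These 9 pools lay within 167 to 211 CPM whatever the age or treatment. The young knockout-label pools stood at 279.0, 197.7 and 236.8 CPM, with replicate 2 inside the wild-type range. Old knockout-label pools stood at 360.8, 371.0 and 328.1 CPM without resveratrol and 345.6, 383.6 and 393.6 CPM with it, above every other pool. Of the rest of the cluster, Adh6a and Adh6b had 0 counts in all 18 pools and Adh4 had 8 counts in 4 pools.

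**Figure D1:**
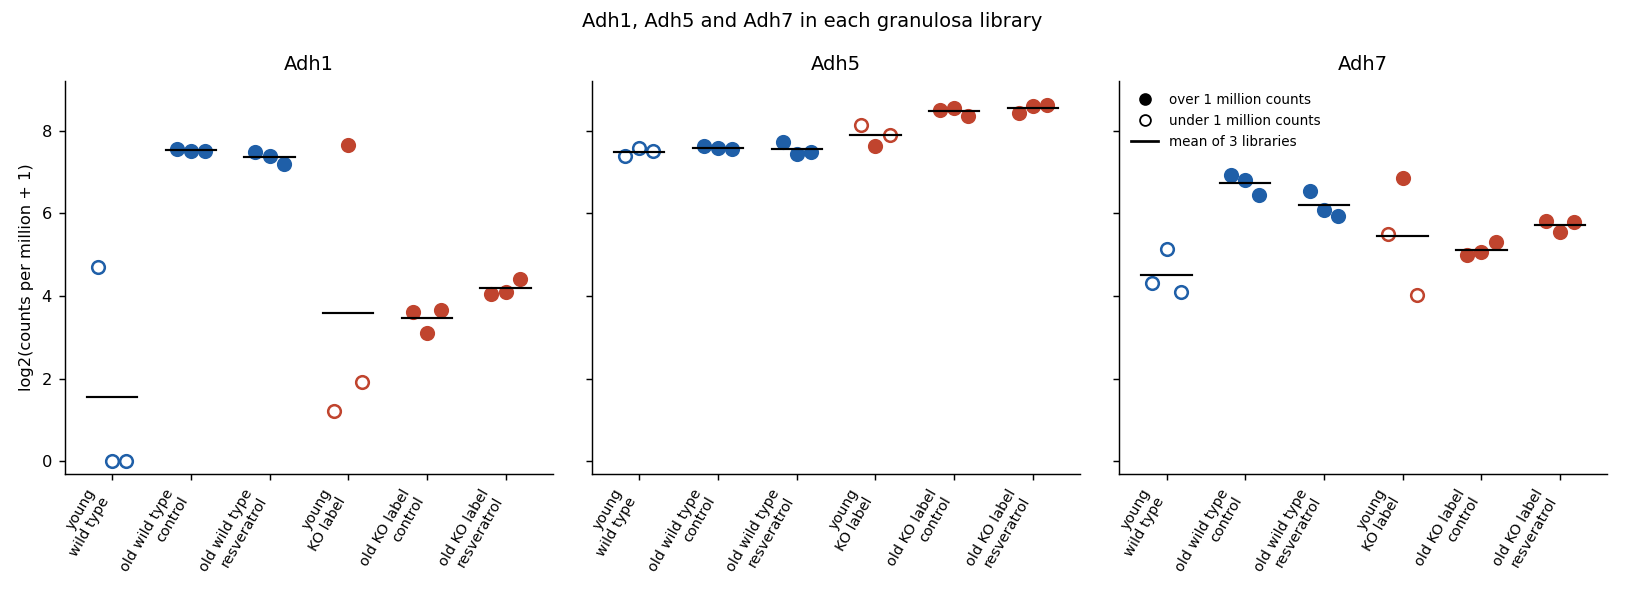
Level of Adh1, Adh5 and Adh7 (log2 of CPM + 1) in each of the 18 granulosa pools, by group, with bars at the group means. Adh1 and Adh7 sit high in the 6 old wild-type pools and in young knockout-label replicate 2, while Adh5 sits highest in the 6 old knockout-label pools.

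Per kilobase of annotated exon, the 3 genes changed places between groups. Summed over the pools of old wild-type controls, Adh1 was at 81.2 CPM per kb, Adh5 at 35.1 and Adh7 at 27.1. In old wild-type resveratrol pools the values were 73.6, 34.9 and 19.7 CPM per kb in the same order. In both groups Adh1 was the most abundant of the 3 and Adh7 the least. In old knockout-label controls Adh5 led at 64.5 CPM per kb, with Adh7 at 9.15 and Adh1 at 4.66, and with resveratrol the values were 68.6, 13.7 and 7.65. Young wild-type pools had the same order, with Adh5 at 32.8, Adh7 at 5.90 and Adh1 at 4.45 CPM per kb, where the pools of Adh7 and Adh1 overlapped. Young knockout-label replicate 2 had the order of old wild type, at 89.0 for Adh1, 36.5 for Adh5 and 30.4 for Adh7, while replicates 1 and 3 together had 0.913 for Adh1, 47.8 for Adh5 and 7.90 for Adh7. Exon lengths are those of the GENCODE vM21 gene models, and the annotation behind the deposited counts is not named in those sources.

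**Figure D2:**
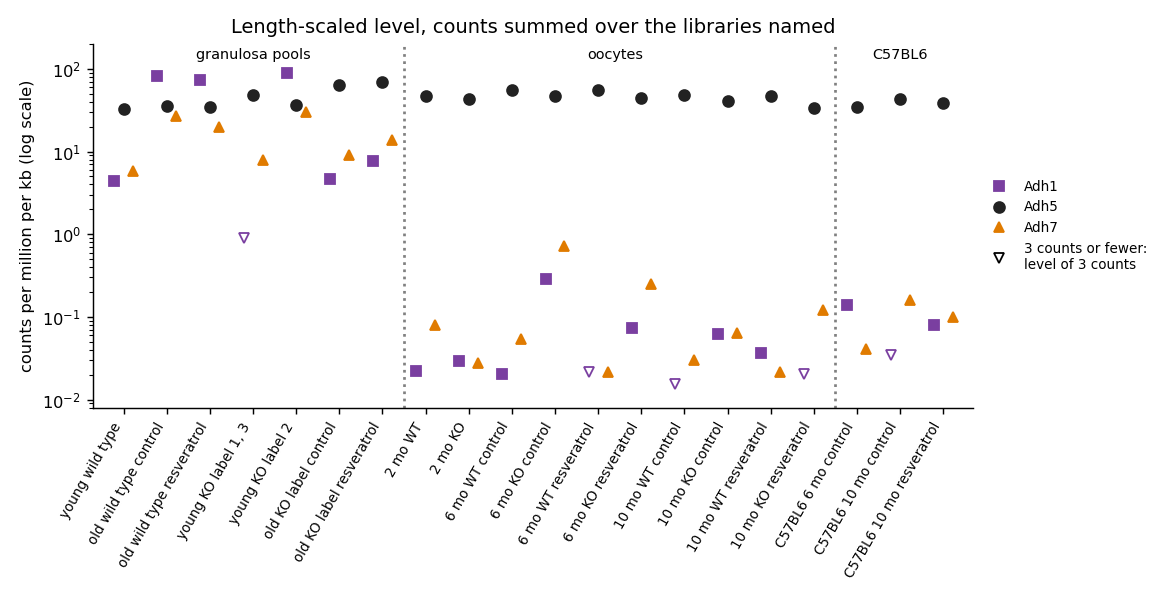
Level per kilobase of exon (CPM per kb, log axis) of the 3 genes in each granulosa group, oocyte group and C57BL6 group, from summed counts. Adh1 is above Adh5 in the old wild-type pools and in young knockout-label replicate 2, and far below Adh5 in the oocyte groups.

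Across the 6 groups, and scaled by TMM factors, Adh1 was highest in old wild-type resveratrol pools (175.8 ± 20.2 CPM, SD, n = 3) and old wild-type controls (167.8 ± 5.43), which did not differ beyond their spread. Next came old knockout-label pools with resveratrol (18 ± 2.22) and without (10.6 ± 2.29), then young wild type (8.09 ± 14.0), whose spread took in both. The young knockout-label mean, 62.5 ± 104.6 CPM, describes none of its 3 pools. Adh5 was highest in old knockout-label pools with resveratrol (387.3 ± 5.57) and without (369.3 ± 21.7), neighbours within their spread, followed by young knockout-label (234.5 ± 52.7) and the wild-type groups (201.1 ± 24.9, 175.8 ± 5.96 and 170.8 ± 8.87 for old resveratrol, old control and young), which overlapped. Adh7 was highest in old wild-type controls (97.2 ± 17.5) and resveratrol pools (78.9 ± 19.3), which overlapped, and lowest in young wild type (21.9 ± 9.2), with old knockout-label pools between them (53.9 ± 7.45 with resveratrol and 35.4 ± 4.68 without). Over the 18 pools the log2 levels of Adh1 and Adh7 had a Pearson correlation of 0.806, Adh1 and Adh5 of -0.282, and Adh5 and Adh7 of -0.110. The pools share groups and depth, so these are descriptions.

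Between young and old wild-type controls, Adh1 and Adh7 rose and Adh5 did not pass the test. Adh1 rose 18.1-fold (log2 difference 4.18, SE 0.98, adjusted p = 0.0340) and Adh7 4.50-fold (2.17, SE 0.45, adjusted p = 0.0159). Adh5 had a log2 difference of 0.04 (SE 0.18, adjusted p = 0.931). Adjusted p is the edgeR quasi-likelihood p with Benjamini-Hochberg adjustment over all 17558 genes tested, of which 1.53% were called in this comparison and 23.8% had higher levels in every old than in every young pool. The median of all genes moved by 0.175 with TMM scaling, 0.066 with DESeq2's size factors in edgeR and 0.028 in DESeq2. The split of calls moved with it, from 148 higher and 120 lower to 82 and 137, or 200 and 335 in DESeq2. Without young wild-type replicate 1, the only young wild-type pool with an Adh1 read, Adh1 was at least 59.1-fold higher in old pools, against a floor of 3 counts over the 2 pools left. Leaving out any 1 of the 6 pools ended the Adh1 call, with adjusted p from 0.0524 to 0.170, and DESeq2 gave 0.05002 with a log2 difference of 4.22. The Adh7 call ended without the first (0.102) or the third (0.123) young pool, and without the first (0.0602) or second (0.0518) old control. All young wild-type pools were shallow and all old ones deep, so depth and age cannot be told apart here. Dosing began at 2 months, so the controls' DMSO water goes with age as well in each comparison with 2-month mice. With counts thinned to 1 depth, the differences were 3.88 (SE 0.83, adjusted p = 0.0085) for Adh1, 2.24 (0.40, 0.0017) for Adh7 and -0.06 for Adh5.

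Luteal markers, a list of 7 genes of luteinising granulosa cells, stood high in the same 7 pools as Adh1. Their summed level was 11201 to 13715 CPM in the 6 old wild-type pools and 12191 in young knockout-label replicate 2, against 5194 to 8718 in the other 11. All 7 were detected in every group, and 0 of 7 passed the test between young and old wild type (median log2 difference 0.299). Their part in the result was not tested. In a pool, fewer cells of a type and less RNA per cell cannot be told apart.

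In knockout-label pools the age comparison depended on replicate 2. With all 3 young pools, Adh1 fell by 2.84 on the log2 scale in old controls (SE 0.71, adjusted p = 0.0201), Adh5 rose by 0.67 (0.17, 0.0249), and Adh7 had a difference of -0.81 (0.35, 0.199), where 5.17% of genes were called. Every old knockout-label control pool was above every young one for Adh5, as for 15.4% of genes. Without replicate 2 the Adh1 difference turned to 2.36 (0.91, adjusted p = 0.118), Adh5 was 0.49 (adjusted p = 0.0871) and Adh7 0.21 (adjusted p = 0.750). The Adh1 call also ended without old control replicate 1 (0.0726) or 2 (0.101), and the Adh5 call without the third young pool (0.0886), the first old control (0.108) or the second (0.131). Without young replicate 3 the Adh7 difference was -1.25 and passed (0.0230). Without young replicate 2, Adh1 rested on 3 counts in the 2 young pools against 467 in old controls, a ratio of 5.10 with a 95% counting interval of 1.74 to 24.8.

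**Figure D3:**
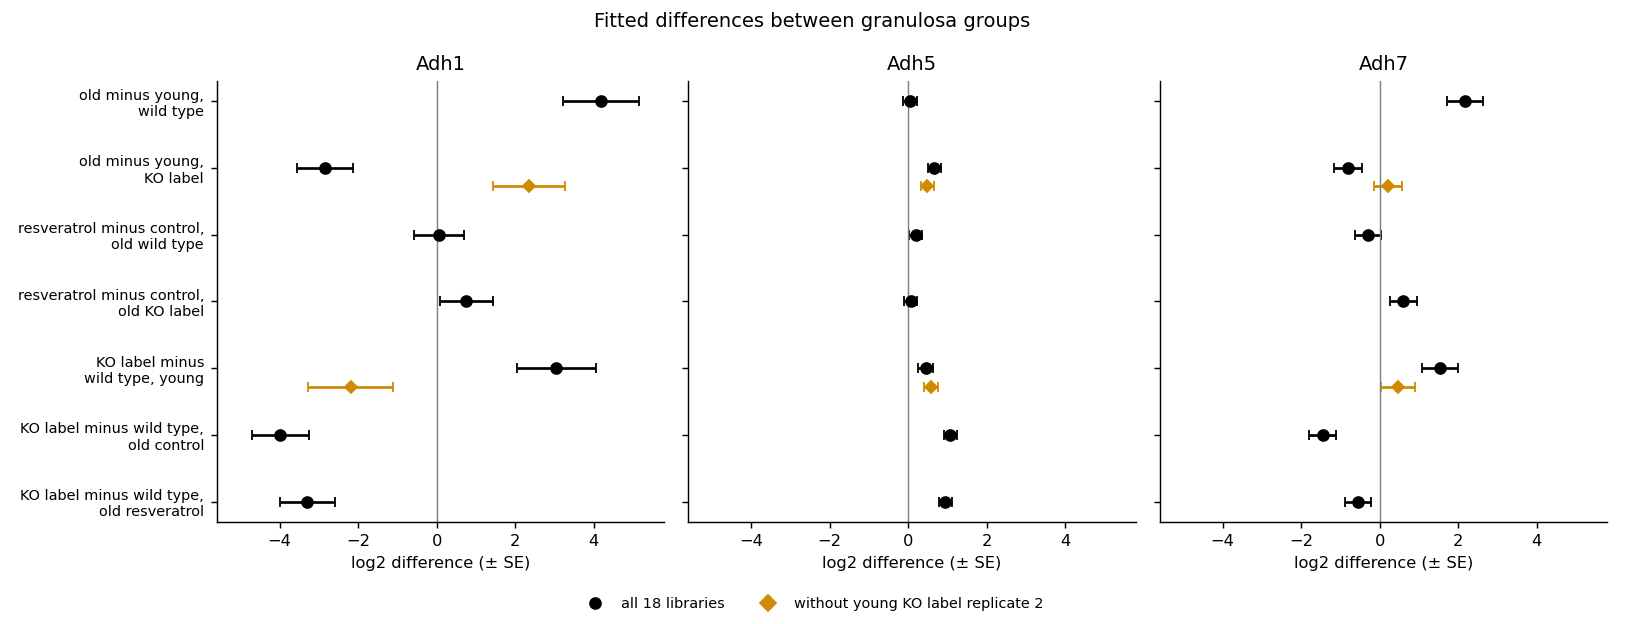
Log2 differences with standard errors for Adh1, Adh5 and Adh7 in each granulosa comparison. Adh1 and Adh7 lie above 0 from young to old in wild type and below 0 between labels in old pools, whereas Adh5 lies near 0 with age in wild type and above 0 between labels.

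The age effect in knockout-label minus that in wild-type pools equals the label difference in old controls minus that in young pools, so it is a description too. It was -7.02 (SE 1.2) for Adh1, -2.98 (0.58) for Adh7 and 0.63 (0.25) for Adh5. Without young knockout-label replicate 2 it was -1.80 for Adh1 and -1.94 for Adh7, so that pool alone moved both by more than their standard errors.

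Resveratrol left all 3 genes without a call in old pools. In wild type the log2 difference was 0.07 (SE 0.64, adjusted p = 0.978) for Adh1, 0.19 (0.17, 0.625) for Adh5 and -0.30 (0.34, 0.724) for Adh7, where 1.62% of genes were called. After TMM scaling the Adh5 pools stood at 184 to 230 CPM with resveratrol and 172 to 183 without, with no overlap, as in 17.6% of genes. In knockout-label pools it was 0.75 (0.67) for Adh1, 0.07 (0.17) for Adh5 and 0.60 (0.34) for Adh7, each with an adjusted p of 1, where 0.0285% were called. There the resveratrol pools of Adh1 and Adh7 did not overlap the controls and stood above them, as did those of 4.98% of all genes. With the 5 shallow pools left out of the fit, the standard errors fell to 0.17 and 0.19 and the adjusted p to 0.175 for Adh1 and 0.566 for Adh7. The resveratrol effect in knockout-label minus that in wild-type pools, a difference of label differences and so a description, was 0.69 (SE 0.93) for Adh1, -0.13 (0.24) for Adh5 and 0.90 (0.48) for Adh7. These comparisons share old control pools with the age comparisons.

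The differences between labels are those by which the genes were chosen. In old controls the knockout-label pools held 0.0635 times the Adh1 of wild type (log2 difference -3.98, SE 0.73), 0.365 times the Adh7 (-1.45, 0.35) and 2.1 times the Adh5 (1.07, 0.17). No pool of one label overlapped the other for any of the 3, as was so for 11.1% of genes in the lower and 16.7% in the higher direction, and 3.86% of genes were called. In old resveratrol pools the differences were -3.29 (0.70) for Adh1, -0.55 (0.34) for Adh7 and 0.95 (0.17) for Adh5, again with no overlap. There 8.64% of genes were lower and 10.5% higher without overlap, and 1.07% were called. Adh5 had the same direction in both, near a doubling on the fold scale, while the Adh7 difference was -1.45 without and -0.55 with resveratrol, which is the Adh7 contrast of resveratrol effects above. In young pools the differences were 3.04 (1.01), 1.53 (0.46) and 0.44 (0.18) for Adh1, Adh7 and Adh5, where 0.114% of genes were called. Without replicate 2 they were -2.19 (1.09), 0.47 (0.44) and 0.59 (0.18), so Adh1 changed sign. On raw counts, 3 against 16, Adh1 was then 4.87-fold lower under the knockout label (95% counting interval 1.39 to 26.1). All 16 wild-type counts came from replicate 1, and the other young wild-type pools held 0. The interval covers counting error only and leaves out the spread between pools, so the direction rests on that 1 pool.

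Some markers of other cells differed between the labels in old control pools, and fewer did with resveratrol. Macrophage markers summed to 1113 to 1454 CPM in knockout-label controls and 287 to 598 with resveratrol, against 62.6 to 110 and 144 to 291 in the wild-type pools. In the control pools 9 of 10 macrophage and 2 of 6 cumulus markers were higher under the knockout label, beside 2.83% of all genes, and 3 of 7 luteal markers were lower, beside 1.03%. With resveratrol the macrophage sums of the 2 labels overlapped. There 1 of 10 macrophage (median log2 difference 0.07) and 0 of 6 cumulus markers were higher, and 2 of 7 luteal markers were lower. The share called there was 1.07% of all genes. Theca and stroma markers summed to 222 to 398 CPM in old knockout-label and 89.6 to 162 in old wild-type pools. In controls 1 of the 5 tested was higher under the knockout label, beside 2.83% of all genes, and their median log2 difference was -0.07. With resveratrol 1 of 5 was higher, with a median of 1.37, where 1.07% of all genes were called. Young knockout-label replicate 2 had macrophage markers at 808 CPM, against 10.9 to 30.0 in the other young pools, with Adh5 at the wild-type level. Their part in the results was not tested. Of 10 other protein-coding genes tested within 500 kb of the cluster, a window chosen after the data were seen, H2afz (1.42, adjusted p = 0.0105) and Lamtor3 (1.00, 0.0059) were higher and Mttp (-1.57, 0.0150) and Tspan5 (-1.03, 0.0314) lower under the knockout label in old controls by edgeR. These 4 of 10 stand beside 3.86% of all genes, and 0 of 10 passed with resveratrol, where the share was 1.07%.

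Other genes of the same chemistry were taken from lists of 46 tested genes. From young to old in wild type 4 of the 46 passed, beside 1.53% of all genes. Of 12 tested genes that interconvert retinol and retinal outside the cluster, 0 passed from young to old in wild type, with a median log2 difference of 0.44 beside 0.175 for all genes. In knockout-label pools, where 5.17% of all genes passed, 2 of 12 rose with age: Rdh10, the main retinol dehydrogenase of the embryo (1.5, SE 0.36, adjusted p = 0.0166), and Dhrs7 (0.81, 0.23, 0.0365). Without replicate 2 of the young pools, where 7.55% of all genes passed, Dhrs7 passed (1.17, adjusted p = 0.00744) and Rdh10 did not (1.43, 0.0768). Of 5 tested genes that make or remove retinoic acid, and of 7 for retinoid receptors and cofactors, 0 passed in either age comparison, except that Rara, a retinoic acid receptor, was lower in old knockout-label pools without that replicate (-2.07, adjusted p = 0.0321). Among 6 carriers and uptake genes, Crabp2, which hands retinoic acid to its receptor, rose in old wild type (1.15, SE 0.28, adjusted p = 0.0393) and Lpl, a lipoprotein lipase, fell by 0.97 (0.24, 0.0441). Without replicate 2 of the young pools, Lpl was lower with age in knockout-label pools (-0.91, adjusted p = 0.0340). Fabp5, a fatty acid and retinoic acid carrier, rose with resveratrol in old wild type (1.31, SE 0.27, adjusted p = 0.0238), the 1 passing gene of the 46 beside 1.62% of all genes.

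Of 10 genes for formaldehyde and nitrosoglutathione, the substrates of Adh5, 2 rose from young to old in wild type, beside 1.53% of all genes: Esd, which completes the formaldehyde route by hydrolysing S-formylglutathione (0.71, SE 0.17, adjusted p = 0.0393), and Cbr1, a carbonyl reductase (0.87, 0.21, 0.0403). The list's median was 0.42. Cbr1 also rose with age in knockout-label pools (0.64, 0.18, 0.0429), where its adjusted p was 0.0598 without replicate 2 of the young pools. Esd was higher under the knockout label in young pools (0.88, SE 0.17, adjusted p = 0.0377) and in old controls (0.62, 0.16, 0.0331), as Adh5 was by description, and no other gene of the list passed there, beside 0.114% and 3.86% of all genes. In young pools the adjusted p of Esd was 0.0820 without replicate 2, where Aldh1a3, a retinal dehydrogenase, was higher under the label (2.38, adjusted p = 0.00476), beside 0.254% of all genes. Esd stood at 182 CPM in young wild type and 335 in young knockout-label pools, at 298 and 459 in old controls, and at 456 and 504 with resveratrol (means of 3, TMM-scaled). Of 7 other genes of ethanol and aldehyde oxidation, 0 passed with age, and Aldh3b1, an aldehyde dehydrogenase, was lower under the label in old resveratrol pools (-1.24, 0.30, 0.0382), beside 1.07% of all genes.

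The genes whose level was most like each member were found by Pearson correlation of log2(CPM + 1) over the 18 pools, among 8727 genes. Adh5 was most like Casp6 (0.969), Mcub (0.924) and Fabp7 (0.905). Casp6 (129901425-129914103) and Mcub (129914960-129970206) adjoin on chromosome 3, on the far side of Tet2 from the cluster. Casp6 stood at 83.8 ± 2.58 CPM in old wild-type controls and 212.4 ± 11 in old knockout-label controls (SD, n = 3). Adh1 was most like Gsto1 (0.884), Spopl (0.882) and Hadh (0.875), of which Hadh (131233419-131272101) is also on chromosome 3. Adh7 was most like Fhl2 (0.894), Grb14 (0.885) and Tom1l1 (0.873). Without young knockout-label replicate 2 the same 3 genes came first for Adh5 and for Adh7, and Rpl3 (0.889) came first for Adh1. These correlations share groups and depth and are a description.

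In oocytes the picture was that of Adh5 alone. It was detected in all 171 oocytes, with 195980 counts, while Adh7 had 483 counts in 67 oocytes and Adh1 111 in 30. Per kilobase, Adh5 in the 10 group sums stood at 33.6 to 55.9 CPM per kb, Adh7 at 0.0214 to 0.731 and Adh1 at 0.0068 to 0.289. In 2-month oocytes Adh5 ranged from 166 to 371 CPM in wild type (median 234) and from 105 to 325 in knockout (median 241). In 6-month controls it ranged from 198 to 486 CPM in wild type (median 289) and 146 to 434 in knockout (median 246), and with resveratrol from 236 to 349 (median 290) and 145 to 383 (median 216). In 10-month controls it ranged from 179 to 333 CPM in wild type (median 255) and 159 to 314 in knockout (median 214), and with resveratrol from 190 to 315 (median 257) and 121 to 248 (median 186). Oocytes of all 10 groups overlapped.

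**Figure D4:**
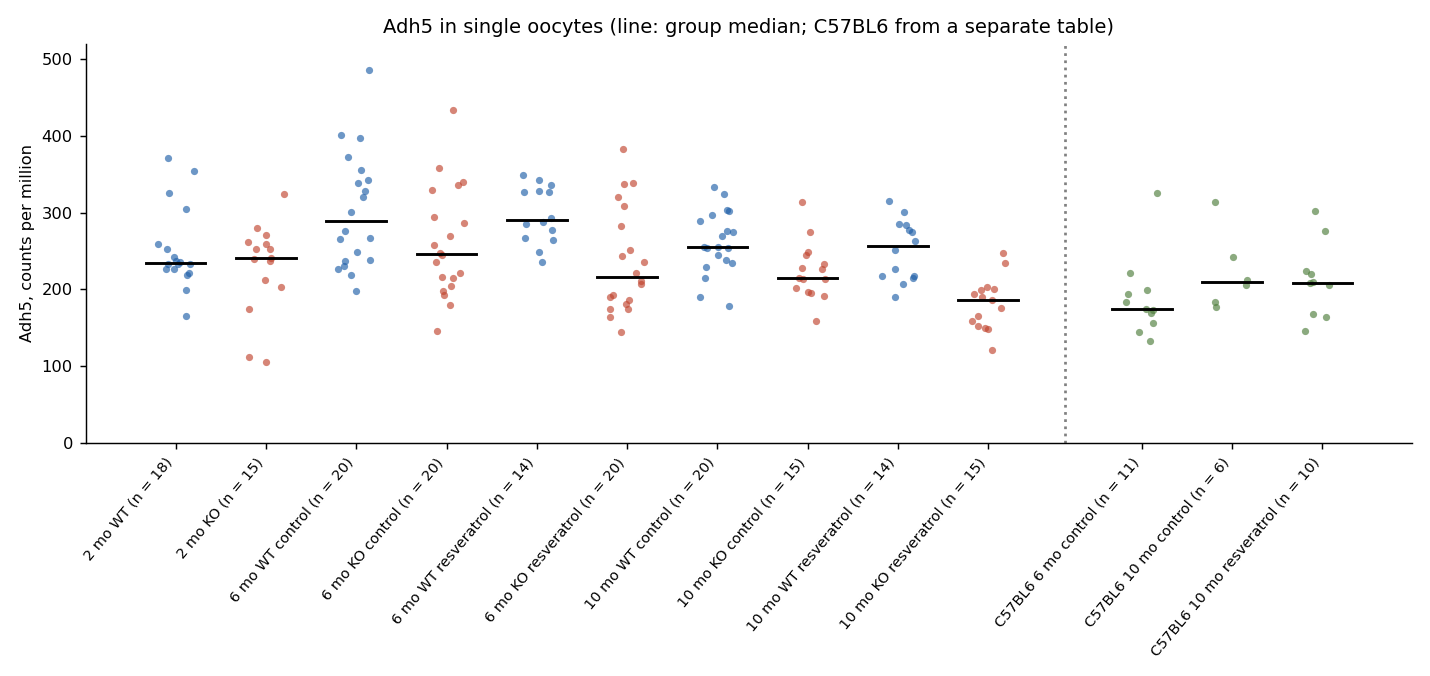
Adh5 level (CPM) in each oocyte by group, with bars at the group medians and the C57BL6 groups to the right. All groups overlap, and the lowest median of the C57BL6/129 groups, 186 CPM, is that of 10-month knockout oocytes with resveratrol.

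Single oocytes are not replicate mice, so the counts of each group were summed and the 10 sums tested for age, treatment and genotype in an additive edgeR model of 20806 genes. Adh5 did not pass for 10 against 2 months (log2 difference -0.07, SE 0.13, adjusted p = 0.873), 6 against 2 months (0.18, 0.14, 0.690), 10 against 6 months (-0.24, 0.10, 0.272) or resveratrol (-0.13, 0.10, 0.9998). The calls over all genes were 0.00481% for 10 against 2 months and for 10 against 6 months, and 0% for 6 against 2 months and for resveratrol, where 1905 and 362 genes had an unadjusted p under 0.05 and DESeq2 called 129 and 0. With oocytes summed by the first number of their column header, whose meaning is not stated, the fall of Adh5 from 6 to 10 months was -0.30 (SE 0.11, adjusted p = 0.0482). In that fit 2846 of 17859 genes were called for 10 against 6 months, and its 26 units are not known to be animals. The resveratrol effect on Adh5 in knockout minus that in wild-type sums was -0.08 (SE 0.19), by description.

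By description, knockout sums held less Adh5 than wild-type sums (log2 difference -0.31, SE 0.09), in the opposite direction to granulosa pools. After TMM scaling it was lower in each of the 5 pairs of sums. The log2 differences were -0.24 at 2 months, -0.36 and -0.39 at 6 months without and with resveratrol, and -0.25 and -0.34 at 10 months. Of all genes, 7.05% were lower in all 5 pairs on that scale and 0.139% were called. Without TMM scaling the knockout sum of Adh5 was again lower in each pair, at 233.6 against 252.1 CPM for 2 months. The median of single 2-month oocytes was higher in knockout, at 241 against 234 CPM.

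Adh1 and Adh7 were near the limit of detection in oocytes. Their differences had wide errors: for 10 against 2 months 0.51 (SE 1.23, adjusted p = 0.894) for Adh1 and -0.36 (1.08, 0.918) for Adh7, for 6 against 2 months 1.67 (1.18, 0.667) and 1.2 (1.08, 0.739), for 10 against 6 months -1.16 (0.91, 0.559) and -1.55 (0.79, 0.358), and for resveratrol -1.08 (0.89, 0.9998) and -0.66 (0.77, 0.9998). Neither gene passed, and with so few counts and errors this wide a change can be neither shown nor excluded. By description the genotype differences were 1.6 (0.85) and 2.05 (0.76). A single 6-month knockout control oocyte held 202 Adh7 counts (37.9 CPM) and 50 Adh1 counts (9.37 CPM), 41.8% and 45.0% of all oocyte counts of these genes. The next highest Adh7 levels were 10.3 and 7.36 CPM. That oocyte also held cumulus cell markers at 65.2 CPM and luteal markers at 470 CPM. Cumulus markers had a median of 23.0 CPM and a maximum of 182 in 6-month knockout controls, 1.87 and 55.3 in 6-month knockout oocytes with resveratrol, and medians of 0 to 0.685 with a maximum of 14.2 in the other 8 groups. Their part in the Adh1 and Adh7 levels was not tested. Adh6b, with 225 counts in 64 oocytes, was lower in knockout sums by description (-3.08, SE 0.70), while Adh4 had 28 counts and Adh6a 11.

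**Figure D5:**
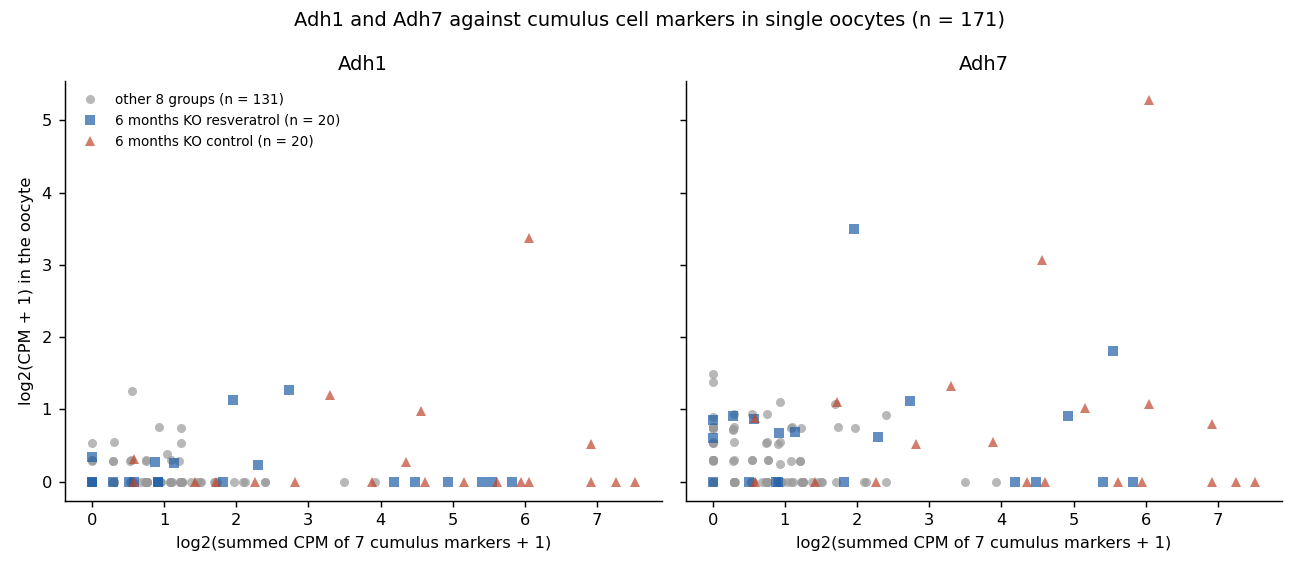
Level of Adh1 and Adh7 against the summed level of cumulus cell markers (each as log2 of CPM + 1) in each oocyte, coloured by group. The oocyte at 37.9 CPM of Adh7 and 65.2 CPM of cumulus markers is a 6-month knockout control.

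In C57BL6 oocytes Adh5 was again found in all 28. It ranged from 132 to 325 CPM in 6-month controls (median 175), 177 to 314 in 10-month controls (median 209) and 146 to 302 in 10-month oocytes with resveratrol (median 208), and was 185 CPM in the unassigned oocyte. The groups overlapped. With 1 sum per group there is no test. On summed counts Adh5 differed by 0.31 on the log2 scale between 10 and 6 months (95% counting interval 0.27 to 0.35) and by -0.17 (-0.20 to -0.13) between resveratrol and control, and 55.8% of 7048 and 52.7% of 7202 genes with at least 10 CPM lay as far from 0. The intervals cover counting error only. Adh7 had 7 counts at 6 months, 24 at 10 months (log2 difference 1.91, 0.72 to 3.44) and 23 with resveratrol (-0.71, -1.60 to 0.18). Adh1 had 14 counts at 6 months and 0 at 10 months, at least 4.05-fold lower when the group is set to 3 counts, and 11 with resveratrol, at least 2.34-fold higher on the same basis. A single 6-month oocyte held 10 of the 14 counts, and without it the bound was 1.27-fold. The oocyte with the highest level under resveratrol held 4 of the 11, and without it the bound was 1.59-fold.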

How the data were processed

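The members and the gene lists were chosen with earlier results of these data known. Both tables that the authors deposited hold raw read counts in whole numbers for 53619 genes. Per the submitters' processing notes, the tools were HISAT2 2.1.0, featureCounts and DESeq2 on mm10, with no roles stated. Strand use in counting is not stated in them, so reads of an antisense partner cannot be told apart. Gene models come from GENCODE vM21 on GRCm38, which matched 28390 symbols. No 31-base stretch of Adh1 or Adh7 transcripts occurs in another gene of the cluster. Adh5 shares 5 with Adh6b, whose longest common run is 40 bases.

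Groups were taken from the titles, which the genotype tag of the young wild-type oocytes contradicts. The test was edgeR 4.0.16 under R 4.3.3 (quasi-likelihood, TMM factors, filterByExpr with a minimum count of 10, Benjamini-Hochberg adjustment, threshold 0.05). The granulosa model held 6 group means, with 12 residual degrees of freedom. For oocytes, 10 group sums were fitted with additive terms for age, treatment and genotype (5 residual degrees of freedom, 4 with an interaction), where the error term is how far sums depart from additivity. Depth ran from 3386039 to 8775154 counts per oocyte on the C57BL6/129 background and from 3470831 to 11358927 on C57BL6. Interaction terms were planned as tests, but they are differences of the label differences that chose the genes and are given with no p-value. C57BL6 sums were compared with 0.5 counts added and exact 95% counting intervals. DESeq2 1.42.0, other scaling, no filter, thinned counts, left-out libraries and a replicate block were the alternatives. Genes named are the members, Tet2, up to 3 passing genes of each list, and the 3 most like each member with a mean of at least 10 CPM. One of the results is not reported here. The scripts were tested on simulated data. Figures were drawn with matplotlib 3.10.9.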

Additional observations from a re-analysis of the deposited data

Results flagged for a closer look

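Of 5 groups of C57BL6 oocytes and genes small enough to be tested for a value far from the rest, 1 held such a value. Among the 10 C57BL6 oocytes at 10 months with resveratrol, 1 stood apart in Adh1 at 1.096 CPM, and 5 were at 0. Chance flags about 1 in 20 such groups.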

How the results depend on the processing

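All values here are log2 differences, with edgeR's adjusted p in parentheses unless DESeq2 is named. The replicate block, from numbers in the titles, gave Adh1 old against young in knockout-label pools as -2.55 (0.0652), and lowered the resveratrol calls in old wild type from 285 to 107. It changed no other call of the 3 genes. Same-numbered pools did not deviate together (median correlation -0.012, with 1 of 45 over 0.1), and 7 of 18 pools were most like their own number. The titles do not say what the numbers mark, and these correlations cannot exclude that they pair the pools. DESeq2 gave Adh1 in knockout-label age as -2.64 (0.232) and in wild-type age as 4.22 (0.05002). With only the compared groups fitted, the knockout-label age difference was -2.78 (0.196) for Adh1 and 0.60 (0.370) for Adh5. With thinned counts that difference was -2.16 (0.155) for Adh1 and 0.56 (0.103) for Adh5. For Adh5 it was 0.55 (0.0894) with DESeq2's size factors in edgeR and 0.65 (0.0698) with no filter. For Adh7 it was -0.85 (0.0197) with no filter and -1.67 (0.00134) without the pools under 1000000 counts, which leaves replicate 2 as the only young pool. In wild type, Adh5 old against young turned to -0.0647 with the other size factors, -0.0642 in DESeq2, -0.0592 with only the compared groups and -0.0564 thinned, and Adh1 with resveratrol to -0.0069 with no filter and -0.0457 thinned. None of these passed. C57BL6 Adh5 at 10 against 6 months was 0.21 with TMM and 0.24 by mean CPM, and with resveratrol -0.0687 by mean CPM. With a pseudocount of 0.25 CPM, 2 of the 3 genes most like Adh1 remained. The cause of these changes was not tested.

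Leaving out 1 library or sum at a time gave -8.62 to -1.80 for the difference of age effects between labels in Adh1 and -3.47 to -1.94 in Adh7. Old against young in wild type ranged from 3.63 to 5.89 for Adh1, -0.0040 to 0.0645 for Adh5 and 1.97 to 2.51 for Adh7. In knockout-label pools it ranged from -3.36 to 2.36, 0.49 to 0.83 and -1.25 to 0.21. Label differences in young pools ranged from -2.19 to 4.45, 0.27 to 0.59 and 0.47 to 1.96. For Adh1 the ends -8.62, 5.89 and 4.45 are limits, not fitted values. They come from a floor of 3 counts when young wild-type replicate 1 is left out, so those ranges are open at that end. Adh1 with resveratrol in wild type ranged from -0.0535 to 0.0868. In oocytes the genotype difference ranged from 0.99 to 2.38 for Adh1 and 1.37 to 2.82 for Adh7. The 10 against 2 month difference ranged from -0.38 to 1.3 for Adh1 and -1.86 to 2.59 for Adh7, where 6 against 2 months gave -0.40 to 4.04 and resveratrol -1.06 to 0.27. Of 329 alternative values of tested differences, 283 kept direction and side of the threshold, 25 no longer passed, 4 now passed and 17 changed sign. Of 294 with no test, 273 moved by less than the spread between samples or the counting interval and 21 by more. The calls over all genes were 268 (60 to 936 over the alternatives) with age in wild type, 908 (104 to 1397) in knockout-label pools, 285 (3 to 1783) and 5 (0 to 132) with resveratrol, 678 (128 to 1284), 187 (56 to 616) and 20 (8 to 215) between labels in old control, old resveratrol and young pools, and 29 (0 to 1507) between oocyte genotypes. They were 1 (0 to 2213), 1 (0 to 2846) and 0 (0 to 629) for 10 against 2, 10 against 6 and 6 against 2 months in oocytes, each highest with oocytes summed by header number. With oocytes summed by header number, an alternative added after seeing the data, the Adh5 fall from 6 to 10 months was -0.30 (0.0482). Counts of 0 to 16 in young pools limit what Adh1 can show there.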
